A study of Rattus norvegicus with 12 samples.

Results

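The renal cortex of obese rats treated with a sodium-glucose cotransporter 2 inhibitor (ZF-SGLT2i) was compared with that of untreated lean rats (ZL), to describe what still differed from lean tissue when treatment ended. The comparison takes 8 of the 12 rats sequenced, ZF-SGLT2i rats 2, 3, 4 and 6 and ZL rats 1 to 4. It covers the 11633 of 13151 genes whose value reached 1 in 4 or more of the 12 rats. The study followed kidney disease of obesity and sequenced RNA from the renal cortex of 3 groups of 4 rats. Untreated obese rats (ZF) made up the group not compared here, and their values are given for reference.

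All rats were male and 32 weeks old. ZL rats were of the Zucker Lean strain and received no drug. ZF and ZF-SGLT2i rats were of the Zucker Fatty strain, which lacks a functional leptin receptor and overeats. ZF-SGLT2i rats ate canagliflozin, an SGLT2 inhibitor, at 10 mg/kg/day in their food during the last 8 weeks, starting at an age of 24 weeks, and their food was matched per body weight to that of untreated ZF rats. The methods describe ZL rats in an experiment with kidney wedge biopsies at earlier ages and ZF-SGLT2i rats in another that bought its rats separately, but the labels do not say which experiment each sequenced rat came from. All rats were perfused with cold saline at death. ZF-SGLT2i and ZL rats differed in genotype, drug and feeding, and possibly in cohort, and the shares of these cannot be told apart. The files hold, for each gene and rat, a read count scaled to the library size and by a factor for the rat, here called CPM. Reads on genes numbered 8886901 to 12210257 per ZL rat and 8914666 to 10293049 per ZF-SGLT2i rat. The ribosomal RNA genes Rn28s and Rn45s took 7.25% to 12.0% of them in ZL and 11.5% to 15.2% in ZF-SGLT2i rats, and the part of this difference in the results was not tested.

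The early proximal tubule takes up most of the filtered glucose through SGLT2 (Slc5a2), and the late, straight part of the tubule takes up the rest through SGLT1 (Slc5a1). An SGLT2 inhibitor leaves glucose in the urine, and the body moves toward burning fat and making ketone bodies, as in fasting. Proximal tubule cells burn fatty acids in their mitochondria, make new glucose and secrete drugs, while the collecting duct sets the final water, salt and acid content of urine.

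The 4 ZL rats were not alike. ZL rats 1 and 4 were far above ZL rats 2 and 3 in genes of the late proximal tubule, called the S3 segment. The summed level of 11 S3 genes, a list drawn up after the values were seen, was 5504, 2715, 3453 and 8812 CPM in ZL rats 1 to 4, and 1671, 1814, 1745 and 1465 CPM in ZF-SGLT2i rats 2, 3, 4 and 6. The same sum over 11 genes of the early segments (S1 and S2), also drawn up after the fact, was 10180, 11110, 12340 and 8111 CPM in ZL rats and 8232 to 9610 CPM in ZF-SGLT2i rats. ZL rats 1 and 4 thus had the highest S3 sums and the lowest early sums of their group. In whole cortex, fewer cells of a type and less RNA per cell cannot be told apart. Values without ZL rats 1 and 4 are therefore given for each gene named whose call they change.

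Of the 11633 genes, 3184 (27.4%) differed between ZF-SGLT2i and ZL in a limma fit with Benjamini-Hochberg adjusted p under 0.05, the rule for a call throughout. Of these, 1441 were higher (12.4%) and 1743 lower (15.0%) in ZF-SGLT2i. Most differences were small, with a median size of 0.43 on the log2 scale among called genes, and 287 called genes (2.47%) differed by at least 2-fold on the scale of log2(CPM + 1), 109 higher (0.937%) and 178 lower (1.53%). The values of the 4 and 4 rats did not overlap for 3259 genes (28.0%). An exact permutation test of a gene whose groups do not overlap gives p = 0.0286, the smallest that 4 rats against 4 allow. The median log2 fold change over all tested genes was near 0, at -6.97e-05. Beside these, 2185 genes (18.8%) were called between ZF and ZL and 366 (3.15%) between ZF-SGLT2i and ZF. The 3 contrasts share their rats, so only their values are set side by side. Without ZL rats 1 and 4, 1778 genes were called against ZL, 1645 of them among the 3184.

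**Figure D1:**
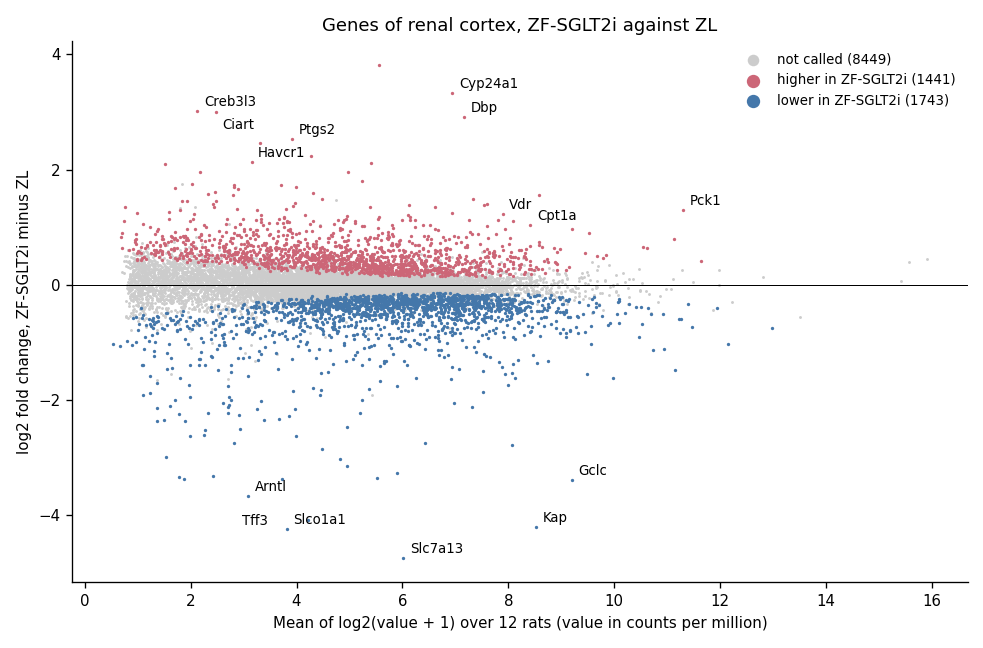
Each point is a gene, with its mean log2(CPM + 1) over 12 rats on the x axis and its log2 fold change, ZF-SGLT2i minus ZL, on the y axis; called genes are coloured by direction. Cyp24a1 (3.32) is among the highest of the 1441 higher genes, and Slc7a13 (-4.73) is the lowest of the 1743 lower genes.

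Glucose transporters were lower or not called. Of 12 tested, 5 were lower (41.7%, beside 15.0% of all genes) and none was higher (beside 12.4%) in ZF-SGLT2i, with a median log2 fold change of -0.41. Slc5a2, the target of the drug, was at 365, 496, 550 and 292 CPM in ZL rats 1 to 4 and at 418, 359, 424 and 403 CPM in ZF-SGLT2i rats 2, 3, 4 and 6. The ZF-SGLT2i values lay inside the ZL range, and the log2 fold change was -0.05 ± 0.17 (SE), with a limma adjusted p of 0.867. ZL rats 2 and 3 were above every ZF-SGLT2i rat and ZL rats 1 and 4 were not, and without the latter the difference was -0.38 (adjusted p = 0.0536). Slc5a1 was at 79.3, 58.3, 61.5 and 78.8 CPM in ZL rats and at 27.5, 33.1, 31.2 and 20.8 CPM in ZF-SGLT2i rats. Every ZF-SGLT2i rat was below every ZL rat, by -1.28 ± 0.19 on the log2 scale (limma adjusted p = 0.000474), and the ZF mean was 35.3 ± 10.6 CPM (SD, n = 4). Slc5a10, a mannose and fructose carrier of the apical membrane, fell by 1.75 on the log2 scale, from 56.6 to 191 CPM in ZL to 20.7 to 39.5 CPM in ZF-SGLT2i rats, and it stood at 74.9 ± 32.8 CPM in ZF. The fructose carrier Slc2a5 was also called, at -0.81, but without ZL rats 1 and 4 the difference was -0.29 (limma adjusted p = 0.31). Slc2a2, which passes glucose on to the blood, differed by 0.09 and was not called.

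Several of the largest falls were in genes of the proximal tubule, and the clock gene Arntl, described further on, was also among them. Slc7a13, an aspartate and glutamate carrier of the S3 segment, was at 838, 140, 244 and 1896 CPM in ZL rats 1 to 4 and at 14.1, 19.3, 22.3 and 14.4 CPM in ZF-SGLT2i rats. The lowest ZL rat was above the highest ZF-SGLT2i rat, and the means differed 44.5-fold. On the log2 scale the difference was -4.73 ± 0.83 (limma adjusted p = 0.00121), and -3.35 without ZL rats 1 and 4 (adjusted p = 0.0139). Its partner Slc3a1, the heavy chain of the cystine carrier, was at 2382, 1121, 1557 and 3742 CPM in ZL and at 659, 707, 718 and 530.5 CPM in ZF-SGLT2i rats, a log2 difference of -1.61 ± 0.31. Of the 11 S3 genes, 10 were lower and their median was -1.37, while 1 of the 11 early genes was lower, with a median of -0.155. These counts describe lists chosen on these values and carry no test. Without ZL rats 1 and 4, 6 S3 genes and 4 early genes were called lower.

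Kap, the kidney androgen-regulated protein of the proximal tubule, was at 1958, 969, 1363 and 3060 CPM in ZL rats 1 to 4 and at 68.7, 102, 116 and 83.0 CPM in ZF-SGLT2i rats. The groups were far apart, by -4.19 ± 0.39 on the log2 scale (limma adjusted p = 1.38e-05), and ZF rats lay between them at 372 ± 202 CPM. Kap was also lower in ZF-SGLT2i than in ZF, by -1.84 (adjusted p = 0.0222), and its difference from ZL was -3.65 without ZL rats 1 and 4. The organic anion carrier Slco1a1 fell from 117 ± 104 CPM in ZL to 3.65 ± 0.743 CPM in ZF-SGLT2i, by 4.23 on the log2 scale. Tff3, a secreted trefoil peptide of epithelia, fell from 158 ± 146 to 5.49 ± 2.06 CPM, by 4.09. The SDs of both ZL means are close to the means themselves, with ZL rats 1 and 4 high. Without these rats the log2 differences of Slco1a1 and Tff3 were -3.165 and -2.76 (limma adjusted p = 0.013 and 0.0187). Gc, the vitamin D binding protein, fell by 3.32, the histamine-degrading enzyme Hnmt by 3.37, the cytochrome P450 Cyp2c11 by 3.37, and Cacng5, a calcium channel gamma subunit, by 3.33, and the ZF means of these 4 genes were 1.36 to 10.5 CPM. Without ZL rats 1 and 4 the log2 differences of Gc, Hnmt, Cyp2c11 and Cacng5 were -2.37, -2.07, -2.12 and -2.14. Those of the organic anion carriers Slco1a6 and Slc21a4 went from -3.34 and -3.27 to -2.21 and -2.26. Hnmt, Slco1a6 and Slc21a4 lost their calls then, with limma adjusted p of 0.068, 0.0732 and 0.0538. Slco1a, Cyp2 and other families here have near-identical members, so how reads were shared among them is uncertain.

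Other carriers and proximal markers were more often called lower than higher. Of 27 organic ion and drug carriers, 12 were lower (44.4%, beside 15.0% of all genes) and none higher, with a median of -0.35. Of 23 amino acid carriers, 7 were lower (30.4%), among them Slc38a3, the glutamine carrier of the basolateral side (-2.22), and 2 were higher (8.7%, beside 12.4% of all genes), the leucine carrier subunit Slc7a5 (0.95) and the taurine carrier Slc6a6 (0.34). Of 20 proximal tubule markers, 12 were lower (60%) and none higher, and all 20 had a fold change below 0. Lrp2, the megalin receptor that takes up filtered proteins, fell by 0.75 on the log2 scale. Gatm, which makes the creatine precursor guanidinoacetate, was at 3034, 3202, 3469 and 2198 CPM in ZL and at 1449, 1145, 1818 and 1093 CPM in ZF-SGLT2i rats. Every ZF-SGLT2i rat was again below every ZL rat, and for Gatm ZL rats 1 and 4 were not the highest. The summed level of the 20 markers was 33020 to 36280 CPM in ZL, 23500 to 31430 CPM in ZF and 19820 to 25470 CPM in ZF-SGLT2i rats, and 11 were called lower without ZL rats 1 and 4.

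**Figure D2:**
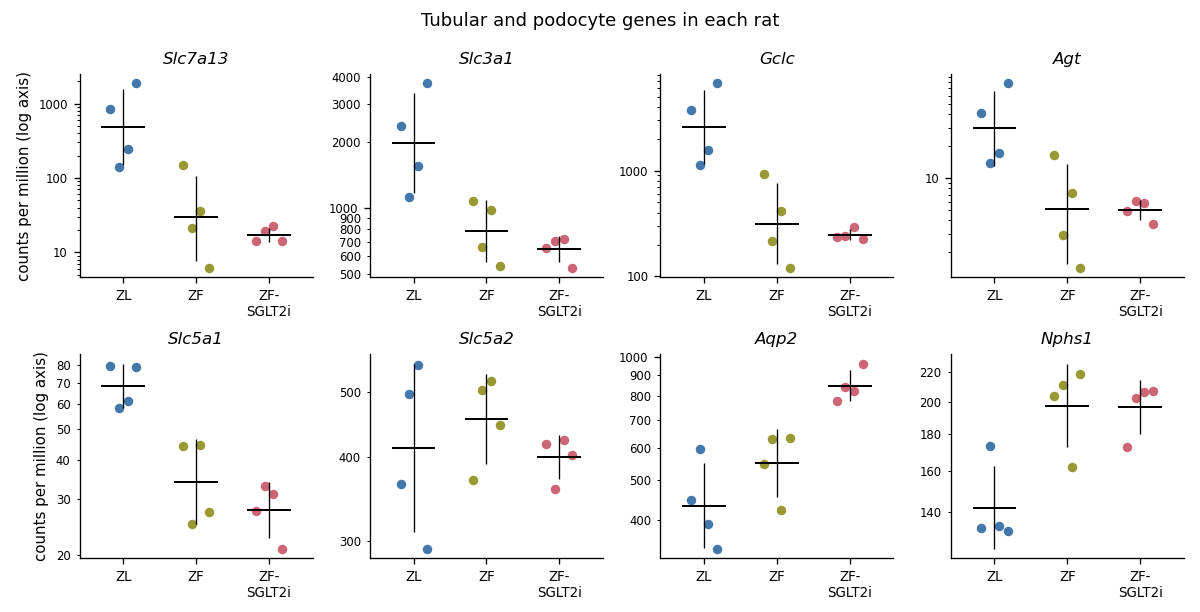
CPM of 8 genes in each rat on log axes, with 1 point per rat in the order of rat number, and the mean and SD of log2(CPM + 1) as black lines. ZL rats 1 and 4 are the highest for Slc7a13, Slc3a1, Gclc and Agt, Slc5a2 overlaps between all groups, and Aqp2 is higher in every ZF-SGLT2i rat (781 to 962 CPM) than in any ZL rat.

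Genes of fat burning and ketone body metabolism moved in both directions. Of 30 tested, 7 were higher and 7 lower (23.3% each, beside 12.4% and 15.0% of all genes), with a median of 0.00. The higher genes included the regulator Ppara, the carnitine transferases Cpt1a and Cpt2 that bring fatty acids into mitochondria, the beta-oxidation enzymes Eci1 and Acaa2, and Pdk4. The rise of Acaa2 was 0.45, and 0.21 without ZL rats 1 and 4 (limma adjusted p = 0.348).

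Cpt1a, the entry step of mitochondrial fatty acid oxidation, was at 235, 244, 256 and 219 CPM in ZL, at 307, 348, 353 and 336 CPM in ZF, and at 507, 496, 503 and 463 CPM in ZF-SGLT2i rats. The 3 groups did not overlap, with ZF between ZL and ZF-SGLT2i, and the log2 difference from ZL was 1.04 ± 0.06. Ppara, the nuclear receptor that switches on fat oxidation genes, was at 44.9, 48.5, 50.1 and 36.7 CPM in ZL and at 90.3, 104, 108 and 118 CPM in ZF-SGLT2i rats, with ZF between them at 67.7 ± 12.6 CPM. Creb3l3, a transcription factor of the fasting response best known from liver, rose from 0.491 ± 0.299 CPM in ZL to 11.1 ± 2.20 CPM in ZF-SGLT2i, by 3.02 ± 0.22 on the log2 scale, with 3.90 ± 1.42 CPM in ZF. Its ZL values rest on few reads, with as few as 2 in a rat. Pdk4, which keeps pyruvate out of the mitochondria, was at 8.52, 9.28, 6.01 and 6.97 CPM in ZL and at 15.3, 23.3, 10.7 and 20.4 CPM in ZF-SGLT2i rats. For Pdk4 the ZF mean of 6.16 ± 1.02 CPM was near that of ZL, and the rise was called against both groups, by 1.05 against ZL and 1.32 against ZF.

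The lower genes included Oxct1 and Bdh1, enzymes of ketone body use. Oxct1, which activates acetoacetate for burning, was at 1204, 1186, 1177 and 1118 CPM in ZL and at 578, 529, 663 and 543 CPM in ZF-SGLT2i rats. Every ZF-SGLT2i rat was below every ZL rat, by -1.02 ± 0.10 on the log2 scale (limma adjusted p = 1.98e-05), and ZF rats were at 638 ± 93.1 CPM. Bdh1, which interconverts the main ketone bodies, fell from 59.2 ± 3.47 to 38.7 ± 3.78 CPM, and was at 31.9 ± 1.69 CPM in ZF. Acadm, the medium-chain acyl-CoA dehydrogenase, fell by 0.51 and Echs1, the enoyl-CoA hydratase, by 0.40. Of 16 genes of lipid uptake and droplets, 5 were higher (31.2%) and 3 lower (18.8%), and 3 and 2 without ZL rats 1 and 4. Directly against ZF, 4 of the 16 were higher, beside 1.39% of all genes. Slc27a1, a fatty acid carrier, rose by 0.54 and Pnpla2, the lipase that opens droplet triglyceride, by 0.49, and both were also higher than in ZF (by 0.46 and 0.71). The microsomal omega-hydroxylase Cyp4a1, a target of Ppara, rose by 0.84, from 68.6 ± 17.5 to 120 ± 12.8 CPM. Of the 37 cytochrome P450 genes 3 were higher (8.11%, beside 12.4% of all genes) and 9 lower (24.3%, beside 15.0%).

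**Figure D3:**
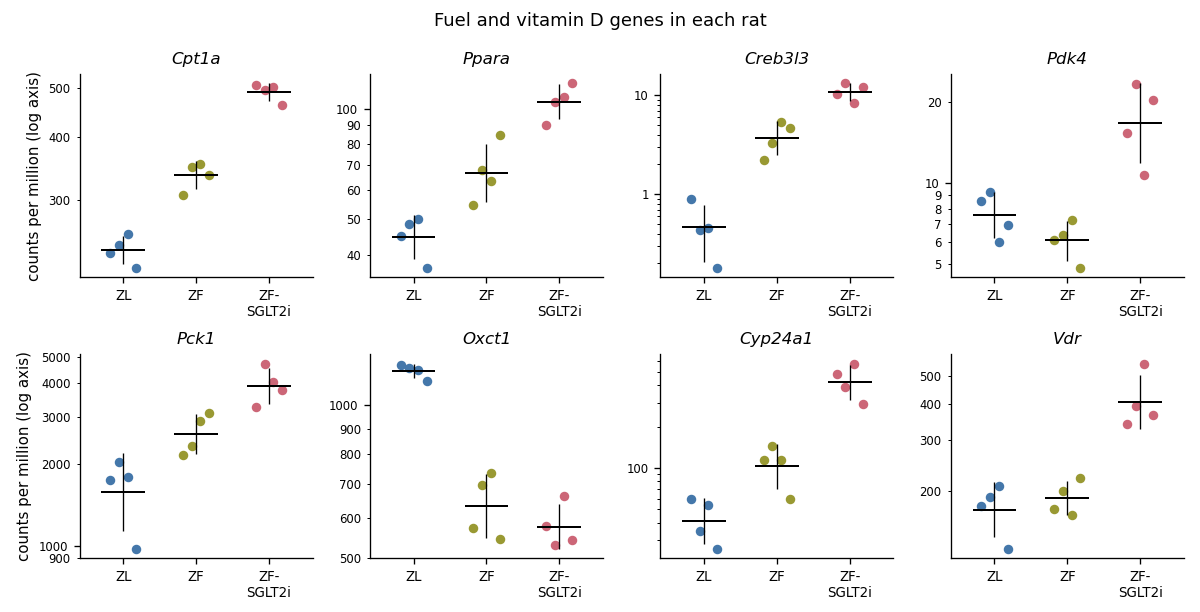
CPM of 8 genes of fuel use and vitamin D in each rat on log axes, with 1 point per rat in the order of rat number and the mean and SD of log2(CPM + 1) as black lines. Cpt1a and Creb3l3 step up from ZL through ZF to ZF-SGLT2i without overlap, whereas Oxct1 is low in both obese groups and Vdr is high in ZF-SGLT2i alone.

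Genes of glucose synthesis were split. Pck1, the first committed enzyme of gluconeogenesis, was at 1756, 2043, 1789 and 972 CPM in ZL and at 3250, 4712, 4017 and 3774 CPM in ZF-SGLT2i rats. The groups did not overlap, and the ZF-SGLT2i mean was 2.40-fold the ZL mean (limma adjusted p = 0.00063), with ZF at 2621 ± 446 CPM. Fbp1, a later step of the same pathway, moved the other way, from 640 ± 50.3 CPM in ZL to 358 ± 47.6 CPM in ZF-SGLT2i, and was also lower than in ZF (570 ± 132 CPM, by -0.65, adjusted p = 0.0187). G6pc, the last step, differed by -0.14 and was not called, but it was called lower without ZL rats 1 and 4 (-0.55, limma adjusted p = 0.0429). In all, 2 of 12 genes of gluconeogenesis and fructose use were higher (16.7%, beside 12.4% of all genes) and 6 lower (50%, beside 15.0%). Of 15 glycolysis genes 3 were lower (20%, near the 15.0% of all genes), Eno1 (-0.50), Pgam1 (-0.47) and Tpi1 (-0.23), and none was higher. Tpi1 was at -0.25 without ZL rats 1 and 4 but was not called (limma adjusted p = 0.0881).

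Subunits of the respiratory chain and ATP synthase were lower almost throughout. Of 71 tested, 64 were lower and none higher, with a median of -0.37, beside 15.0% lower among all genes. The falls were small and even, up to -0.56 for Cox7c, a subunit of cytochrome c oxidase. Cox7c was at 141, 136, 144 and 138 CPM in ZL and at 95.8, 87.5, 114 and 83.6 CPM in ZF-SGLT2i rats. ZF rats were at 101 ± 10.6 CPM, and the median of the 71 genes in ZF against ZL was -0.36. Between ZF-SGLT2i and ZF their median was -0.00372. With rat number as a block 26 of the 71 were called lower, and without ZL rats 1 and 4 the count was 51. The block fit in effect compares only ZL and ZF-SGLT2i rats 2, 3 and 4, with fewer degrees of freedom.

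Genes of sterol and fatty acid synthesis were mostly lower too, 16 of 27 (59.3%, beside 15.0% of all genes) against 1 higher, with a median of -0.39. Dhcr7, a late reductase of cholesterol synthesis, fell from 42.8 ± 17.0 CPM in ZL to 11.2 ± 2.43 CPM in ZF-SGLT2i, by 1.79 ± 0.23 on the log2 scale, with no overlap between these groups. Elovl6, which lengthens fatty acids, was the exception. It was at 18.8 to 23.1 CPM in ZL, at 27.6 ± 4.53 CPM in ZF, and at 46.4, 49.4, 47.1 and 47.3 CPM in ZF-SGLT2i rats, which lay within a narrow range above all others. Either with rat number as a block or without ZL rats 1 and 4, 8 of the 27 were called lower. Of 11 genes of kynurenine and NAD metabolism 8 were lower (72.7%), with a median of -0.60 in ZF-SGLT2i against ZL and also in ZF against ZL. Nampt, the entry enzyme of NAD salvage, was the only one higher (0.17). Without ZL rats 1 and 4 it was at 0.22 but was not called (limma adjusted p = 0.0548).

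**Figure D4:**
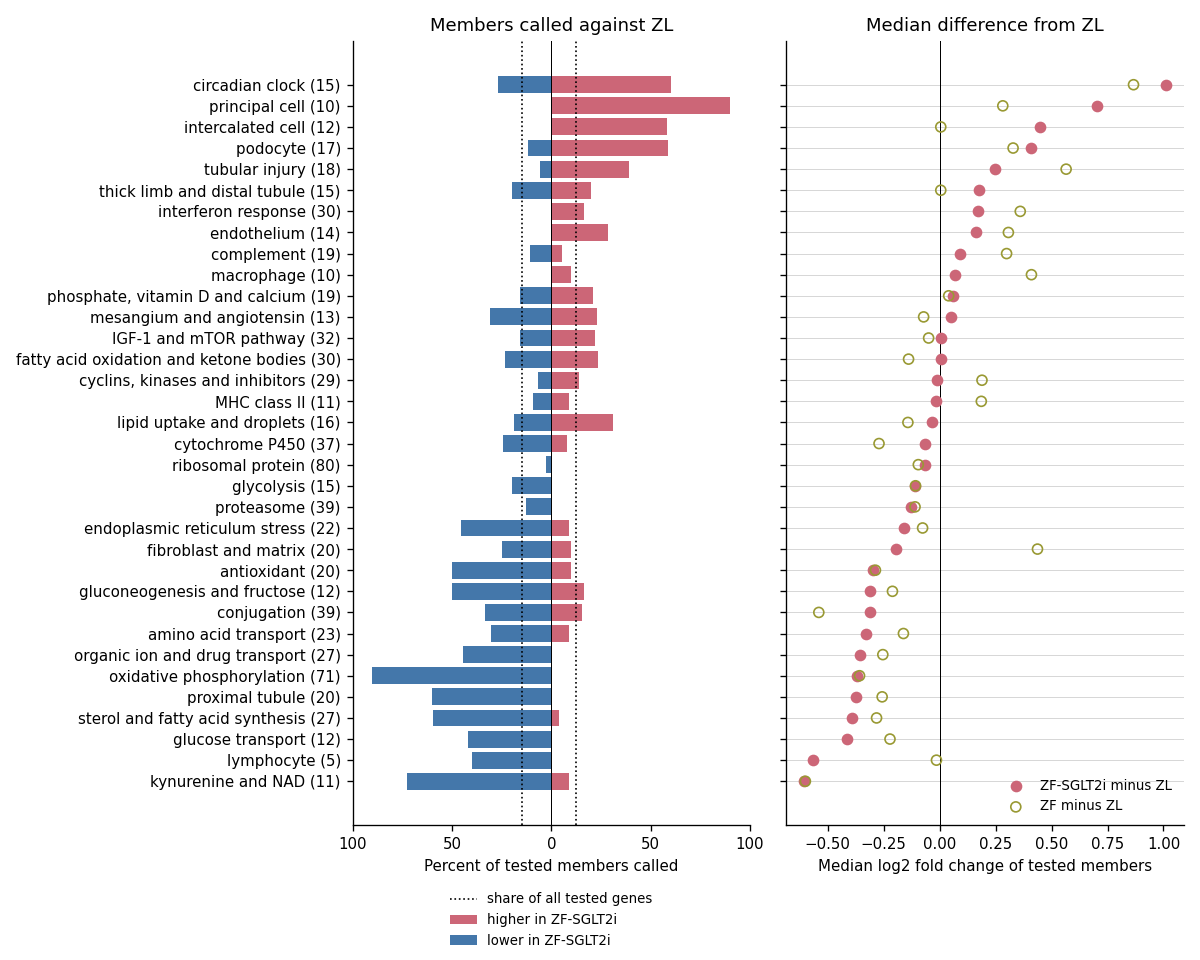
For each gene list with at least 5 tested members (number in parentheses), the left panel gives the percent called higher (to the right) and lower (to the left) in ZF-SGLT2i against ZL, with dotted lines at the shares of all tested genes, 12.4% and 15.0%. The right panel gives the median log2 fold change against ZL for ZF-SGLT2i (filled) and ZF (open); oxidative phosphorylation lies near -0.37 and -0.36 in the 2 groups, while fibroblast and matrix genes lie on opposite sides of 0.

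The vitamin D genes set the treated rats apart from ZL. Cyp24a1, the hydroxylase that inactivates vitamin D hormone, was at 59.9, 34.8, 54.1 and 25.8 CPM in ZL rats 1 to 4 and at 483, 392, 575 and 291 CPM in ZF-SGLT2i rats. The lowest treated rat was above the highest ZL rat, and the log2 difference was 3.32 ± 0.29 (limma adjusted p = 8.62e-06), with ZF at 108 ± 35.4 CPM. Vdr, the receptor of the hormone, was at 178, 191, 208 and 127 CPM in ZL, at 174, 201, 165 and 222 CPM in ZF, and at 340, 393, 549 and 367 CPM in ZF-SGLT2i rats. ZL and ZF overlapped and ZF-SGLT2i lay above both, by 1.22 ± 0.16 against ZL and 1.09 against ZF. Of 19 genes of phosphate, vitamin D and calcium handling, 4 were higher (21.1%, beside 12.4% of all genes), the others being the calcium channels Trpv5 (0.72) and Trpv6 (0.83). The 3 lower genes (15.8%, close to the 15.0% of all genes) were the phosphate carrier Slc34a1 (-0.39), the parathyroid hormone receptor Pth1r (-0.41) and Fgfr1 (-0.24), a receptor for the phosphate hormone FGF23. Fgfr1 was at -0.18 without ZL rats 1 and 4 and was not called (limma adjusted p = 0.148). Cyp27b1, which makes the active hormone, was below 1 CPM in all 8 rats, and its log2 difference was 0.04.

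Most collecting duct markers were higher in ZF-SGLT2i than in ZL. Of 10 markers of principal cells, 9 were higher and none lower, with a median of 0.705, beside 12.4% higher among all genes and a median of 0.28 in ZF against ZL. Aqp2, the water channel that vasopressin controls, was at 447, 594, 391 and 340 CPM in ZL and at 781, 842, 823 and 962 CPM in ZF-SGLT2i rats. The groups did not overlap, the log2 difference was 0.97 ± 0.16 (limma adjusted p = 0.000742), and the ZF mean was 558 ± 98.8 CPM. The sodium channel subunits Scnn1g and Scnn1b rose by 0.83 and 0.72. Of 12 intercalated cell markers 7 were higher (58.3%) and none lower, with a median of 0.45, and 0.00 in ZF against ZL. Aqp6, a channel of acid-secreting cells, was at 109, 126, 98.9 and 109 CPM in ZL and at 183, 210.3, 222 and 217 CPM in ZF-SGLT2i rats, without overlap. Slc26a4, the chloride and bicarbonate exchanger pendrin, rose by 0.69.

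ZL rat 4 had the lowest sum of both lists. Summed principal cell markers were at 1669, 2081, 1578 and 1343 CPM in ZL rats 1 to 4 and at 2453 to 3124 CPM in ZF-SGLT2i rats, and summed intercalated markers at 2985, 3770, 3442 and 2661 against 3978 to 4120 CPM. Hsd11b2, which shields principal cells from cortisol-like hormones, and the proton pump subunit Atp6v0a4 were the most abundant members. Without ZL rats 1 and 4, 5 principal and 2 intercalated markers were called higher. Hsd11b2 was not among them (0.43, limma adjusted p = 0.09, beside 0.55 with all rats). In the thick limb and distal tubule, 3 of 15 markers were higher and 3 lower (20% each), shares not far from the 12.4% and 15.0% of all genes. Slc12a3, the thiazide-sensitive sodium chloride carrier, was at 1671, 2115, 1991 and 1258 CPM in ZL and at 2812, 2959, 3035 and 3151 CPM in ZF-SGLT2i rats, all above ZL. Its regulator Wnk4 rose by 0.61. Egf, the growth factor made in the same segments, moved the other way, from 2058 ± 217 CPM in ZL to 1109 ± 169 CPM in ZF-SGLT2i, with 1250 ± 113 CPM in ZF. Cldn10, a tight junction protein, fell by 1.33 and Umod, the uromodulin of urine, by 0.60. For Umod the difference was -0.29 without ZL rats 1 and 4 and was not called (limma adjusted p = 0.329).

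Of 17 podocyte genes tested, 10 were higher (58.8%, beside 12.4% of all genes) and 2 lower (11.8%, beside 15.0%) in ZF-SGLT2i against ZL, with a median of 0.41. In ZF against ZL, 9 were higher, beside 8.19% of all genes, and 1 was lower, with a median of 0.33, and the median between ZF-SGLT2i and ZF was 0.02. Nphs1, the nephrin of the slit diaphragm, was at 133, 173.5, 134 and 132 CPM in ZL and at 172.8, 203, 206 and 207 CPM in ZF-SGLT2i rats, and ZL rat 2 overlapped the lowest treated rat by a small margin. The difference was 0.47 ± 0.11 on the log2 scale (limma adjusted p = 0.00599), and 0.36 without ZL rats 1 and 4 (adjusted p = 0.0757). The ZF mean was 199 ± 25.3 CPM. Nes, an intermediate filament of podocytes and vessels, rose by 0.88 from 147 ± 23.1 to 270.3 ± 29.7 CPM. Mme, a peptidase that proximal tubule cells also carry, fell by 1.85, and ZL rats 1 and 4 were its highest samples. With rat number as a block 5 podocyte genes were higher, and without ZL rats 1 and 4 the count was 7. Of 14 endothelial markers 4 were higher (28.6%), led by Ehd3, a membrane-trafficking protein of glomerular capillaries (0.87).

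Of 13 genes of the angiotensin system and the mesangium, 3 were higher (23.1%, beside 12.4% of all genes) and 4 lower (30.8%, beside 15.0%). Agt, the precursor of the angiotensins, made in the kidney by the proximal tubule, was at 40.7, 13.8, 17.1 and 79.1 CPM in ZL rats 1 to 4 and at 4.86, 6.06, 5.84 and 3.68 CPM in ZF-SGLT2i rats. It fell by 2.35 ± 0.57 on the log2 scale, and by 1.44 without ZL rats 1 and 4, where limma's adjusted p was 0.102. The angiotensin receptor Agtr1a fell by 0.75. Ptgs2, the inducible cyclooxygenase of the macula densa region, was at 2.78, 3.64, 4.76 and 4.11 CPM in ZL and at 21.5, 21.5, 31.8 and 33.0 CPM in ZF-SGLT2i rats. The groups were 7.05-fold apart, and the ZF mean of 26.8 ± 12.6 CPM was close to the treated mean.

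Some injury genes were above ZL, and the spread among treated rats was wide for a few of them. Of 18 tested, 7 were higher (38.9%, beside 12.4% of all genes) and 1 lower (5.56%, beside 15.0%) in ZF-SGLT2i, with a median of 0.25. In ZF against ZL 10 were higher, beside 8.19% of all genes, and none was lower, with a median of 0.565. Havcr1, the injury molecule KIM-1 of proximal tubule cells, was at 1.70, 1.56, 1.70 and 1.88 CPM in ZL rats 1 to 4 and at 21.9, 16.7, 13.4 and 2.34 CPM in ZF-SGLT2i rats 2, 3, 4 and 6. ZF-SGLT2i rat 6 lay close to ZL and the other 3 far above. The log2 difference was 2.12 ± 0.57 (limma adjusted p = 0.0147). Without ZL rats 1 and 4 it was about as large, at 2.17, but not called (adjusted p = 0.0642). Spp1, the matrix protein osteopontin, had the same order, at 166 to 178 CPM in ZL and at 811, 771, 489 and 204 CPM in ZF-SGLT2i rats. Its log2 difference was 1.56, and 1.53 without ZL rats 1 and 4, where it was not called (limma adjusted p = 0.106). Cd44, a receptor for hyaluronan and osteopontin, was even among treated rats, at 16.6 ± 2.07 CPM in ZL, 38.7 ± 6.59 in ZF and 37.4 ± 1.93 CPM in ZF-SGLT2i. Vcam1, an adhesion molecule, was the lower one (-0.50), and without ZL rats 1 and 4 it was at -0.38 and not called (adjusted p = 0.221). Lcn2, the injury marker NGAL, was at 2.67 ± 0.523 CPM in ZL and 7.44 ± 4.23 CPM in ZF-SGLT2i, and was not called.

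Most matrix genes were not called against ZL. Of 20 fibroblast and matrix genes, 2 were higher (10%, beside 12.4% of all genes) and 5 lower (25%, beside 15.0%) in ZF-SGLT2i against ZL, with a median of -0.19. In ZF against ZL, 7 were higher and none lower, beside 8.19% and 10.6% of all genes, with a median of 0.44. Directly against ZF, 7 of the 20 were lower in ZF-SGLT2i, beside 1.75% of all genes, and none was higher. Dcn, the proteoglycan decorin, was at 90.3, 77.7, 57.9 and 89.4 CPM in ZL, at 113, 76.8, 119 and 58.3 CPM in ZF, and at 45.4, 35.2, 40.6 and 39.9 CPM in ZF-SGLT2i rats. Treated rats were below both other groups. Col4a1, a collagen of basement membranes, fell from 573 ± 59.1 CPM in ZL to 412 ± 21.5 CPM in ZF-SGLT2i. Col1a1, the main fibrillar collagen, differed by -0.14 from ZL and was not called. The 2 higher calls were lost when ZL rat 1, ZL rat 3, ZF-SGLT2i rat 3 or ZF-SGLT2i rat 6 was left out. Without ZL rats 1 and 4 a single gene of the list was lower against ZL. The falls of Dcn, the fibroblast receptor Pdgfra and the matrix protease Mmp2 were then not called (limma adjusted p = 0.0507, 0.0511 and 0.13). Their log2 differences were -0.94, -0.50 and -0.58 with all rats and -0.73, -0.44 and -0.56 without ZL rats 1 and 4.

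Few immune genes were called. Of 10 macrophage markers 1 was higher (10%, beside 12.4% of all genes), Cd14 (0.50), a co-receptor for bacterial lipid. Cd14 was not called without ZL rat 3 (limma adjusted p = 0.0605). Summed markers overlapped, at 159 to 232 CPM in ZL and 193 to 381 CPM in ZF-SGLT2i. Of 5 lymphocyte markers tested out of 16, 2 were lower (40%, beside 15.0% of all genes), Cd2 (-0.67) and Ccl5 (-0.57). Cd2 was at -0.37 without ZL rats 1 and 4 and was not called (limma adjusted p = 0.255). Without ZF-SGLT2i rat 6 none of the 5 was called. Of 11 MHC class II genes 1 was higher and 1 lower (9.09% each), and the counts were 4 and 1 with rat number as a block. Of 30 interferon response genes 5 were higher (16.7%), among them Irf7 (0.97), a driver of interferon production, and Oasl (0.85). With rat number as a block none of the 30 was called, and without ZL rat 1, or without ZL rats 1 and 4, the count was 1. Irf7 (limma adjusted p = 0.056) and Oasl (0.0881) were among those lost without both rats. Their log2 differences were then 1.199 and 0.809, beside 0.97 and 0.85 with all rats. Of 19 complement genes 1 was higher (5.26%) and 2 lower (10.5%), and none was called without ZL rat 1 or without ZL rats 1 and 4. C4b, a component of the classical pathway, was at 6.92 to 8.70 CPM in ZL and at 43.7, 38.2, 14.3 and 11.1 CPM in ZF-SGLT2i rats, which did not overlap. Its log2 difference was 1.49 (limma adjusted p = 0.0363), and 1.57 without ZL rats 1 and 4 (adjusted p = 0.11). The summed haemoglobin genes reached 3.52 CPM in ZL and ran from 0.505 to 24.9 CPM in ZF-SGLT2i, and none of the 3 on the list was called, though all 3 were called higher without ZF-SGLT2i rat 3. Hba2, an alpha globin gene outside the list that was looked up after its value was seen, was called higher (1.67, limma adjusted p = 0.0194). Without ZL rats 1 and 4 it was at 1.73 but was not called (adjusted p = 0.0738). Of the adipocyte markers, Adipoq was level (0.04) and Cidec, a lipid droplet protein, was lower (-2.23). The difference of Cidec was -1.28 without ZL rats 1 and 4 and was not called (limma adjusted p = 0.156).

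Circadian clock genes were among the largest differences. Clock genes form a loop in which Arntl (BMAL1) with Clock or Npas2 turns on Per, Cry, Dbp and Ciart genes through E-box sequences, and Nr1d1 and Nr1d2 hold Arntl down through ROR elements. Of 15 tested, 9 were higher (60%, beside 12.4% of all genes) and 4 lower (26.7%, beside 15.0%) in ZF-SGLT2i against ZL, and the median was 1.01. The 250 bases before the start of a gene with each kind of element are shown, from RefSeq on build GRCr8. For Arntl (chr1:176766078-176766327, plus strand) the capitals mark a match to the ROR element NTAGGTCA, and for Ciart (chr2:186112247-186112496, minus strand) they mark matches to the E-box CACGTG.
Arntl: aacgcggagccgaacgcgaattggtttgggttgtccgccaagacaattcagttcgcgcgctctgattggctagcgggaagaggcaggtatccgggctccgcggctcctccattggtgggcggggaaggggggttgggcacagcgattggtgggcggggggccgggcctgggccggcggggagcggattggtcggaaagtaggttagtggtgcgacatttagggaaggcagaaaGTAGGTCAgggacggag
Ciart: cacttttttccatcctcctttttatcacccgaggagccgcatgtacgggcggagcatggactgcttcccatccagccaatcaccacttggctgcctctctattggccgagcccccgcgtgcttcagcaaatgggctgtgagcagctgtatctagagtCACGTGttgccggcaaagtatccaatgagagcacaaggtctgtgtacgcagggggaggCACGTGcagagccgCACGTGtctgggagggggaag

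Both strands were searched over 250 bases before to 50 after the start, and the motifs do not contain each other. Among 33469 rat promoters of that length, 6.42% held the E-box, 3.66% the D-box TTATGNAA and 2.62% the ROR element. Of the 14 clock genes with a promoter in the table, the E-box was found in 3, Ciart with 3 matches, Tef with 1 and Bhlhe40 with 1. The D-box was found in Per2 and the ROR element in Arntl. A match describes the letters in this window and is no evidence of binding.

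Arntl was at 51.4, 47.9, 42.7 and 30.4 CPM in ZL rats 1 to 4, at 3.64, 2.31, 7.01 and 1.42 CPM in ZF rats, and at 2.86, 1.82, 2.72 and 2.34 CPM in ZF-SGLT2i rats. All ZL rats were far above all obese rats, and the log2 difference of ZF-SGLT2i from ZL was -3.67 ± 0.29 (limma adjusted p = 4e-06). Its relative Npas2 fell from 37.0 ± 9.86 to 6.54 ± 2.11 CPM, by 2.33, and Nfil3, a repressor that acts on D-boxes, fell by 2.11. Ciart, a repressor of the Arntl complex, was at 0.359, 0.520, 0.794 and 0.983 CPM in ZL and at 11.0, 8.78, 15.9 and 13.9 CPM in ZF-SGLT2i rats. The ZL values of Ciart rest on few reads, and its log2 rise ran from 2.84 to 4.24 over the alternatives. Dbp, an activator at D-boxes, was at 25.3, 37.5, 34.0 and 65.9 CPM in ZL and at 296, 257, 334 and 299 CPM in ZF-SGLT2i rats, a rise of 2.92 ± 0.22. Neither gene overlapped between the groups. Per3, Per2 and Per1, which shut the loop down, rose by 2.11, 1.5 and 1.25. That of Per1 was 0.41 without ZL rats 1 and 4 and was not called (limma adjusted p = 0.219). The median of the 15 genes between ZF-SGLT2i and ZF was 0.14. The hour at which each rat died is not given in the sources used here, and its part in these values was not tested.

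**Figure D5:**
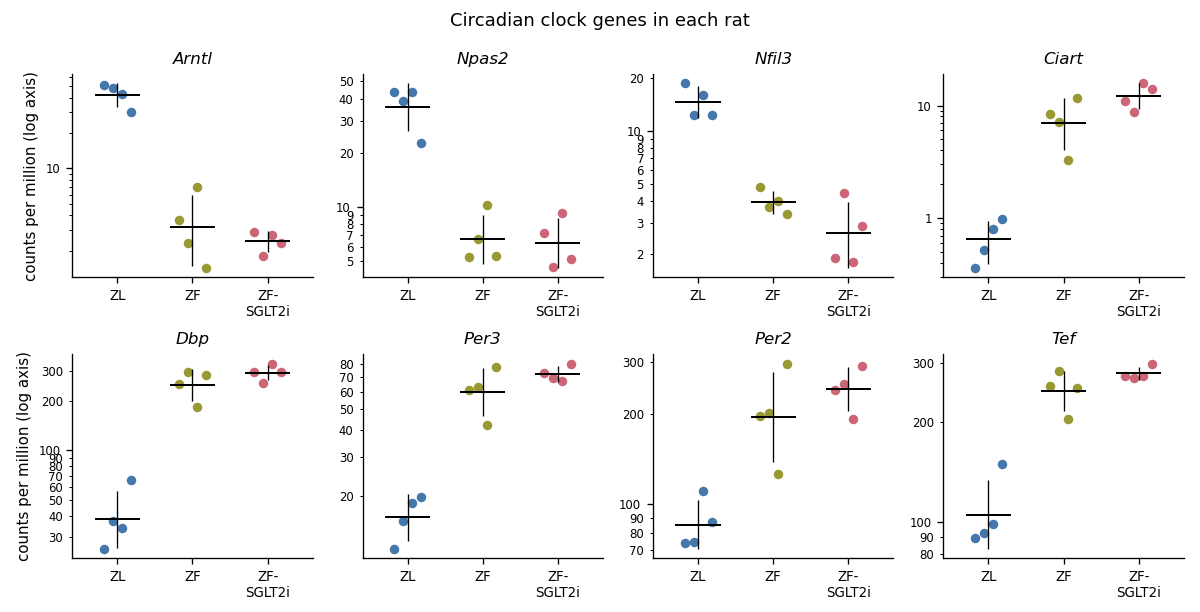
CPM of 8 circadian clock genes in each rat on log axes, with 1 point per rat in the order of rat number and the mean and SD of log2(CPM + 1) as black lines. Arntl, Npas2 and Nfil3 are high in ZL and low in both obese groups, and the other 5 genes have the opposite pattern.

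Among 32 members of the IGF-1 and mTOR pathways, 7 were higher (21.9%) and 5 lower (15.6%), beside 12.4% and 15.0% of all genes, with a median of 0.01. The counts were 3 and 4 without ZL rats 1 and 4. Igf1 was at 8.26, 7.28, 8.73 and 10.8 CPM in ZL and at 3.14, 3.13, 4.73 and 3.90 CPM in ZF-SGLT2i rats, a fall of 1.05. Igfbp1, a binding protein that limits it, rose from 48.3 ± 7.31 to 105 ± 6.25 CPM, and was also above ZF (67.1 ± 9.74 CPM, adjusted p = 0.00674). The kinase Mtor itself differed by 0.02. Of 29 cell cycle genes 4 were higher (13.8%) and 2 lower (6.9%), and 2 and 1 without ZL rat 1. Cdkn1c, the cell cycle inhibitor p57 of podocytes, rose by 1.13 from 38.3 ± 4.30 to 85.2 ± 10.8 CPM, and was at 75.2 ± 3.05 CPM in ZF. Ccnd1, the cyclin D1 of early cell cycle, differed by 0.14 ± 0.12 (limma adjusted p = 0.422). It was 0.35 without ZL rats 1 and 4 and was then called (adjusted p = 0.0266).

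Of 22 genes of endoplasmic reticulum stress 10 were lower (45.5%, beside 15.0% of all genes) and 2 higher (9.09%, beside 12.4%). Hspa5, the chaperone BiP, was at 438, 492, 511 and 572 CPM in ZL, at 444 ± 46.5 CPM in ZF, and at 300.1, 335, 307 and 278 CPM in ZF-SGLT2i rats. It was below ZL by -0.72 and below ZF by -0.54, without overlap. Of 20 antioxidant genes 10 were lower (50%) and 2 higher (10%). Gclc, the rate-limiting enzyme of glutathione synthesis, was at 3722, 1134, 1559 and 6730 CPM in ZL rats 1 to 4 and at 237, 240, 293 and 224 CPM in ZF-SGLT2i rats. It had the same order within ZL as the S3 genes, and its log2 difference of -3.38 was -2.42 without ZL rats 1 and 4 (limma adjusted p = 0.0111). Its partner subunit Gclm differed by -1.62, and by -0.76 without those rats (adjusted p = 0.0546), and 4 antioxidant genes were called lower then. Cytosolic ribosomal proteins and proteasome subunits moved little, with 2 of 80 and 5 of 39 lower, none higher, and medians of -0.07 and -0.13. None of either was called without ZL rats 1 and 4. The ribosomal protein Rps28 differed by -0.31, and by -0.27 without those rats (limma adjusted p = 0.153). Gapdh, often used as a reference gene, differed by -0.07 and was not called. Actb differed by -0.39 (limma adjusted p = 0.0131), and by -0.31 without ZL rats 1 and 4 (adjusted p = 0.121). With quantile normalization the adjusted p of Actb was 0.368. Lepr, the leptin receptor, was at 9.07 ± 2.57 CPM in ZL and 6.40 ± 0.778 CPM in ZF-SGLT2i and was not called.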

How the data were processed

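The authors deposited a table of normalized signal values with 13151 genes in its lines and the 12 rats in its columns, and 0 columns belong to other samples. RNA was depleted of ribosomal RNA and libraries kept the strand. The submitters' processing notes name Trimmomatic 0.38, RSEM 1.3.0, Bowtie2, edgeR and the rat build rn6, without their roles. Within a rat all values are multiples of what 1 read is worth, so the deposited signal already holds a library size correction, and whole reads could be recovered (100% of values). The precision of a low gene is limited by its reads. Gene names were matched to the RefSeq table of GRCr8, and 12146 were symbols and 796 synonyms. Its coordinates were not used for the genes, since its build differs from rn6, and promoter windows were taken from GRCr8 by symbol.

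Values were compared on log2(value + 1) with limma 3.58.1 (eBayes with trend) in R 4.3.3, with all 3 groups in a fit, two-sided p-values and Benjamini-Hochberg adjustment over the 11633 genes. A pseudocount of 1 shrinks the log2 fold changes of genes near 1 CPM. Genes named were the 12 largest rises and 12 largest falls among called genes without overlap and with a mean of at least 5 in the higher group, the 3 largest called members without overlap of each of 36 lists, and Slc5a2, Slc5a1, Lepr, Ccnd1, Havcr1, Gapdh and Actb. Some of these are left unnamed for brevity, a few others are counted but not reported here, and further list members were named after their values were seen. The comparison and the lists were chosen with earlier results of these data known, and the S3 and early proximal lists after the values were seen. Two-sided exact permutation tests took the 70 assignments of 4 rats against 4. Of 39 conjugation genes, 6 were higher (15.4%, beside 12.4% of all genes) and 13 lower (33.3%, beside 15.0%) against ZL, with a median of -0.31. The median in ZF against ZL was -0.54. Directly against ZF, 8 of the 39 were higher, beside 1.39% of all genes, and none was lower. Alternatives were a pseudocount of 0.1, no filter, a mean of at least 10, median ratio scaling, quantile normalization, a fit of the 2 groups alone, rat number as a block, array weights, edgeR 4.0.16 and DESeq2 1.42.0 on the recovered reads, each rat left out in turn, and, chosen after seeing the data, ZL without rats 1 and 4. Scripts were tested on simulated data. Labels name each rat as a separate sample, and no pair of rats of a group held the same library.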

Additional observations from a re-analysis of the deposited data

Results flagged for a closer look

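Among 107 of the genes taken by the naming rule in the 3 groups, 321 sets of 4 rats, a rat stood apart from the other 3 of its group in 18 sets by Dixon's test, where chance gives about 1 in 20, or 16. In ZL, Egf (1735 CPM), Gapdh (1790 CPM) and Agtr1a (44.6 CPM) were low in rat 4, Cd14 (3.74 CPM), Pdgfra (133 CPM) and Rps28 (87.7 CPM) were low in rat 3, Ndufb10 (58.9 CPM) was low and Spp1 (178 CPM) high in rat 2, and Atp5i (84.7 CPM) was high in rat 1. In ZF-SGLT2i, Cdkn1c was low in rat 2 (69.0 CPM, beside 90.0 to 91.1 in the others), Rb1 was low in rat 3 (84.6 CPM) and Atp5i was high in rat 4 (68.5 CPM, beside 46.7 to 49.9). In ZF, Ptgs2 was high in rat 5 (45.6 CPM, beside 19.7 to 22.2), as was Ehd3 (60.8 CPM). Trpv6 (2.97 CPM) and Sdf2l1 (13.5 CPM) were high in ZF rat 2. Fbp1 (768 CPM) and Sult2a1 (2.31 CPM) were high in ZF rat 4.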

How the results depend on the processing

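The 3184 calls (1441 higher, 1743 lower) and the 329 called list members fell to 1502, 714, 788 and 191 with rat number as a replicate block, and the calls fell to 1778 (795 higher, 983 lower) without ZL rats 1 and 4. The numbers of ZL rat 1, ZF rat 5 and ZF-SGLT2i rat 6 occur in no other group. With the block these rats therefore add nothing to the comparison, and fewer degrees of freedom are left. Lost calls with the block can reflect this and not only the blocking. Leaving out a rat gave 2241 to 3302 calls, with 2241 without ZF-SGLT2i rat 6. The other alternatives gave 2780 to 4030, with 3216 by edgeR and 3282 by DESeq2. Quantile normalization moved the share of higher genes among the calls from 45.3% to 52.3%. The labels do not say whether same-numbered rats share more than a number, so the block is no known pairing by design. Deviations from the group means correlated at 0.026, -0.14 and -0.027 between ZL and ZF-SGLT2i rats 2, 3 and 4. So few correlations cannot tell whether such rats shared a cage, day or run. Of 105 called named genes, 72 were called under each alternative that tested them (22 or 23), 20 lost the call with the block and 26 without ZL rats 1 and 4, and none changed direction. Slc5a2 and Gapdh, which were not called, did. Slc5a2 turned to 0.088 with quantile normalization and ranged from -0.21 to 0.092 over the fits that left out 1 rat, beside -0.38 without ZL rats 1 and 4, and Gapdh to 0.25 with quantile normalization and 0.00 (0.0047) with the block. With the block, 2 glucose carriers, 6 proximal tubule markers, 1 endothelial marker and 0 proteasome subunits were called in the same direction, in place of 5, 12, 4 and 5. Cell cycle genes, 4 higher and 2 lower, numbered 1 and 1 with the block and 6 and 6 with array weights, the 3 lower glycolysis genes 1 with the block, and the 2 lower lymphocyte markers and 2 higher matrix genes 0 each with the block. Without ZL rats 1 and 4, 4 cytochrome P450 genes were lower in place of 9, and without ZL rat 4 the IGF-1 and mTOR genes called higher numbered 3 in place of 7. Without ZL rat 1, the counts were 3 for the 7 higher intercalated markers, 1 for the 3 lower lipid genes, 3 for the 5 lower matrix genes and 1 for the 5 lower proteasome subunits, and without ZF-SGLT2i rat 6 they were 4 for the same intercalated markers, 2 for the 4 higher endothelial markers, 1 for the 5 higher interferon genes and 6 for the 10 lower antioxidant genes. The 5 lower proteasome subunits numbered 9 without ZF-SGLT2i rat 4. The cause of these changes was not tested. Genes with few reads, such as Creb3l3 with 2 in a ZL rat, have the widest counting error.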
